A study of Mus musculus with 15 samples.

Results

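The genes described here are the granins and the prohormone processing genes of the secretory granule, namely Chga, Chgb, Scg2, Scg3, Scg5, Pcsk1, Pcsk2, Pcsk1n, Cpe and Vgf. They were chosen by symbol as genes shared by all endocrine cell types, and all 10 were found among the 25292 genes of the read count table. Expression was measured by strand-specific poly(A) RNA sequencing of C57/Bl6J mouse embryonic pancreas in 15 libraries, in 5 groups of 3. Tests were made with edgeR over 16245 genes, and a gene was called at a Benjamini-Hochberg adjusted p below 0.05. All 10 genes passed the filter on low counts.

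The wt and S1pr2 null groups were whole pancreata taken at 14.5 dpc without treatment. By the methods of the study the null allele is S1pr2 tm1Rlp, a germline allele, so that every cell of the organ carries it. The other groups were wt dorsal buds of the same stage kept for 2 days at the air-liquid interface (ALI) on filters in serum-free medium. They received medium with no antagonist, with solvent where the methods called for it (control), 15 µM of the S1pr2 antagonist JTE013 (JTE), or 15 µM JTE013 with 50 ng/ml of connective tissue growth factor (JTE+CTGF). By the methods each library pooled up to 3 organs or explants of its group, so the spread between libraries is that between pools. S1pr2 itself had 796, 812 and 858 reads in the wt libraries and 1368, 1486 and 1609 in those labelled S1pr2 null. The allele is described by the study as a Neo cassette inserted in exon 1, which need not lower the number of reads, and the table does not show where in the gene they lie. The reads therefore do not check the genotype, and the group is called here by its label. Totals ranged from 11402804 to 13828737 reads per library. JTE replicate 3 stood apart from JTE replicates 1 and 2, with a chi-square per gene of 17.2 and 23.2 against 3.01 between the latter and 2.34 to 10.2 within the other groups. The pancreatic markers Cpa1, Ptf1a, Pdx1, Nkx6-1 and Sox9 were detected in every group.

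Endocrine cells make peptide hormones as larger precursors and pack them into dense core granules. Granins are acidic proteins that help to condense the cargo of the granule, and several are themselves cut into peptides. The prohormone convertases Pcsk1 and Pcsk2 cut precursors after paired basic residues, and carboxypeptidase E (Cpe) then trims those residues from the new ends. Scg5 encodes 7B2, the chaperone that Pcsk2 needs to mature, and Pcsk1n encodes proSAAS, an inhibitor of Pcsk1. Neurons and enteroendocrine cells use much of the same set. In the pancreas these genes as a set mark endocrine cells and are low in acinar, duct and mesenchymal cells.

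The promoters are shown because several granin genes are textbook targets of CREB, the factor that binds the cAMP response element TGACGTCA. RefSeq start sites on GRCm38.p6, the same build as mm10, were given for 8 of the 10 genes, Cpe and Vgf having no window. Windows from 250 bases before to 50 bases after the start were searched on both strands. TGACGTCA was found in 3 of the 8 windows, and in 1.79% of all 32851 windows. The element began 68 bases before the start of Scg2 (chr1:79440076-79440105, minus strand), 72 before that of Chgb (chr2:132781559-132781588, plus strand) and 78 before that of Pcsk1 (chr13:75089768-75089797, plus strand). Capitals mark the element in 30 bases of each, read 5′ to 3′ on the strand of the gene. The annotation of the count table starts Scg2 and Chgb further upstream, so that these windows overlap its first exon, while that of Pcsk1 lies outside its exons.
Scg2: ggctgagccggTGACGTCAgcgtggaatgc
Chgb: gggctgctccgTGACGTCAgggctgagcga
Pcsk1: ccaggtagatcTGACGTCAagagatggctt

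The shorter sequence TGACG, which is part of the full element and so overlaps it, was found in 7 of the 8 windows and in 20.8% of all windows. It is shown in capitals for the genes without the full element that held it. It lay 44 bases before the start of Chga (chr12:102554885-102554914, plus strand), 30 before that of Scg3 (chr9:75684069-75684098, minus strand) and 175 before that of Scg5 (chr2:113829249-113829278, minus strand). The Scg5 window also held it 19 bases after the start and, on the opposite strand, 40 bases after. Matches after the start are not printed. In Pcsk2 (chr2:143546087-143546116, plus strand) it was read on the opposite strand, as CGTCA, 34 bases before the start.
Chga: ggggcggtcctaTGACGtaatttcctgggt
Scg3: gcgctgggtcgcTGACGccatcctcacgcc
Scg5: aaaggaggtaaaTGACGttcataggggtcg
Pcsk2: ctggcgggcgcgCGTCAcccgggctggcgc
The TATA box TATAAA was found in Chga, 5 to 10 bases after the start rather than before it, and in 13.6% of all windows. The E-box CAGATG, a sequence bound by Neurod1, was in 0 of the 8 windows and in 17.2% of all. The RE1 core motif, the site of the neuronal repressor Rest, was in 0 of the 8 and in 0.0365% of all. These matches are letters in a window, and binding was not measured.

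The 10 genes together gave 15751, 16635 and 15391 normalised reads in the wt libraries and 8503, 7834 and 8775 in those labelled S1pr2 null. In explants they gave 31565, 29139 and 27887 in the controls, 18556, 18960 and 17306 with JTE, and 19130.0, 19617 and 22601 with JTE+CTGF. A normalised read count is the count scaled to a common library size. The control explants were highest and the libraries labelled S1pr2 null lowest. On this scale JTE and JTE+CTGF lay between control and wt without overlapping either. As a share of all reads the set took 0.136% ± 0.005 in wt, 0.0716% ± 0.0040 in the libraries labelled S1pr2 null, 0.228% ± 0.010 in control, 0.140% ± 0.002 with JTE and 0.153% ± 0.012 with JTE+CTGF (SD, n = 3). By this share the JTE libraries, at 0.137% to 0.141%, overlapped those of wt, at 0.131% to 0.141%. In pooled tissue, fewer endocrine cells and less RNA per endocrine cell cannot be told apart.

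**Figure D1:**
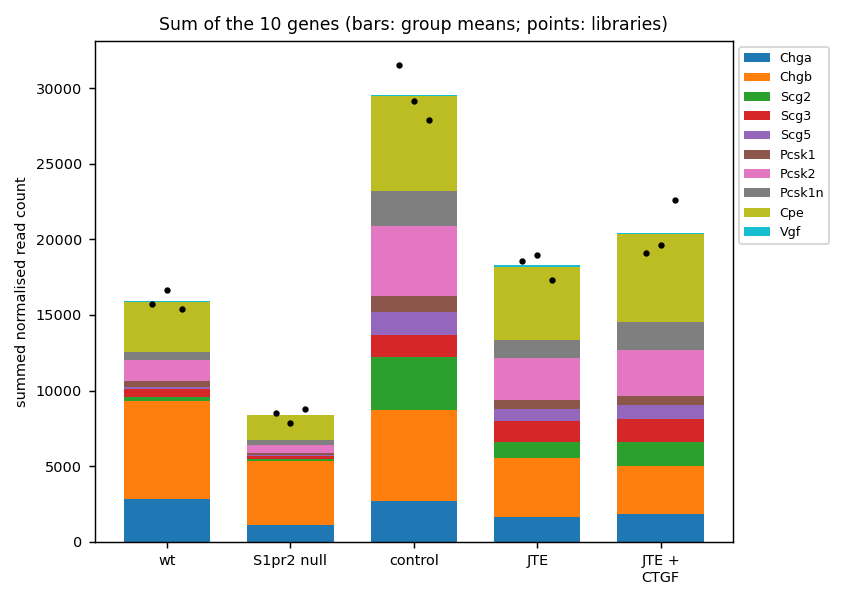
Summed normalised read count of the 10 genes (y axis) in each group (x axis), with coloured bars stacked from group means and black points for the 3 libraries of each group. The libraries labelled S1pr2 null lie between 7834 and 8775 and the control explants between 27887 and 31565, and the share of Chga and Chgb is smaller in all explant groups than in fresh pancreas.

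The make-up of the sum differed between fresh and cultured tissue. Chga and Chgb made up 58.5% ± 1.19 of the set's reads in wt and 64.0% ± 0.777 in the libraries labelled S1pr2 null, but 29.5% ± 1.96 in control, 30.2% ± 1.68 with JTE and 24.6% ± 0.781 with JTE+CTGF (SD, n = 3). The share of Scg2 was 1.85% ± 0.281 in wt and 11.9% ± 0.768 in control. Chgb had the most reads of the set in fresh pancreas, and Cpe in the explant groups, at 6253 against 5994 in control. Without Chgb, the sums were 9455 ± 709 in wt, 4135 ± 184 in the libraries labelled S1pr2 null and 23540.0 ± 1117 in control. They were 14400 ± 701 with JTE and 17260 ± 1714 with JTE+CTGF.

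Per length, as RPKM (reads scaled by gene length and library size), Chgb was the most abundant of the set in wt at a level of 188.2 ± 5.07, followed by Cpe at 126.4 ± 6.05 and Chga at 120.0 ± 10.97 (SD, n = 3). Levels of Cpe and Chga overlapped within their spread. Vgf was the least abundant in every group, with an RPKM of 1.92 ± 0.198 in wt and 0.680 ± 0.0874 in the libraries labelled S1pr2 null. In control explants Cpe came first at an RPKM of 238.8 ± 15.1, ahead of Chgb at 174.4 ± 28.0, and Scg2 at 112.9 ± 8.93 stood level with Chga at 115.1 ± 2.42. Scg2 had been eighth of the 10 in wt, at an RPKM of 9.50 ± 1.80.

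**Figure D2:**
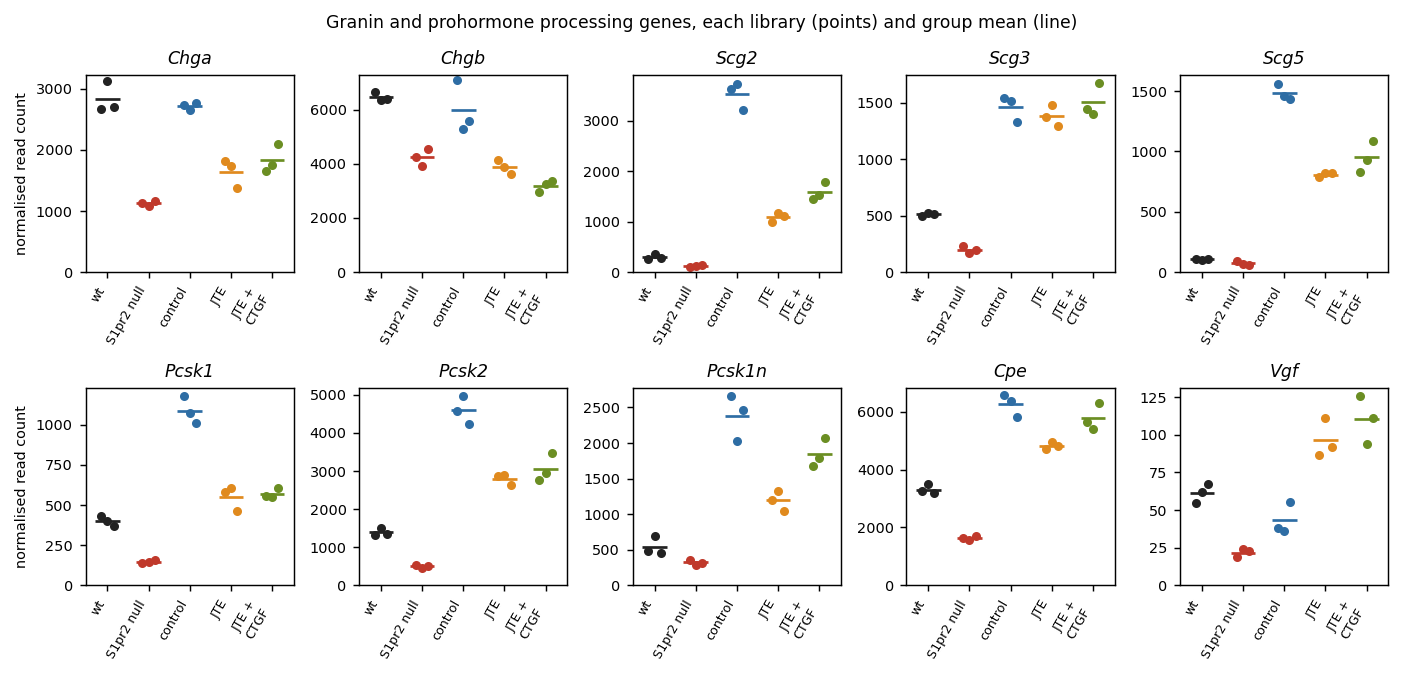
Normalised read count (y axis, from 0, its own scale in each panel) of each of the 10 genes in every library, with points for libraries, short lines for group means and the 5 groups along the x axis. Of the panels, Scg3 shows the 3 explant groups at the same height, Chga and Chgb show wt and control at the same height, and Vgf shows JTE and JTE+CTGF above every other group.

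The comparison of the libraries labelled S1pr2 null with wt asks what changes in the organ without the receptor. All 10 genes were lower, against 13.3% of all genes tested, and 0 higher, against 12.6%, and the median log2 fold change was -1.33 against -0.012 over all genes. For each of the 10 the 3 libraries of each group did not overlap, which was so for 46.3% of all genes tested in either direction. The falls were not of equal size, ranging from -1.49 for Vgf to -0.58 for Scg5.

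Among the granins, Chga (chr12:102554969-102565027, 8 exons), whose protein is the common histological marker of endocrine cells, had 2669, 3132 and 2699 normalised reads in wt and 1138, 1084 and 1156 in the libraries labelled S1pr2 null. The log2 fold change was -1.33 ± 0.10 (SE, edgeR adjusted p = 9.38e-08). Chgb (chr2:132781278-132795079, 5 exons) had 6671, 6362 and 6378 against 4255, 3911 and 4541, a smaller fall of -0.61 ± 0.09 (edgeR adjusted p = 0.000112). The falls of Scg2 (chr1:79434669-79440090) and Scg3 (chr9:75643264-75683996), which binds Chga and helps to sort it into granules, were close to that of Chga, at -1.34 ± 0.14 and -1.37 ± 0.10. Vgf (chr5:137030295-137033351), a granin-like precursor of neuroendocrine peptides, had 54.9, 62.3 and 67.6 normalised reads in wt and 18.6, 24.0 and 22.7 in the libraries labelled S1pr2 null. It was thus low in every library, with a log2 fold change of -1.49 ± 0.20 (edgeR adjusted p = 6.3e-05).

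Both convertases fell alongside Chga. Pcsk1 (chr13:75089826-75132498, 14 exons) had 431.2, 403.2 and 371.6 normalised reads in wt and 140.3, 145.0 and 155.6 in the libraries labelled S1pr2 null, a log2 fold change of -1.45 ± 0.11 (edgeR adjusted p = 9.62e-08). Pcsk2 (chr2:143546156-143816285, 12 exons) had 1310, 1510 and 1347 against 538.8, 463.5 and 498.0, a change of -1.47 ± 0.09 (edgeR adjusted p = 1.27e-08). Their partners fell by less, with 95% intervals that did not overlap those of the convertases. Scg5 (chr2:113776362-113829121) had 111.6, 102.5 and 106.0 normalised reads against 88.3, 65.6 and 61.4, a change of -0.58 ± 0.15 (edgeR adjusted p = 0.00691), and Pcsk1n (chrX:7919822-7924410) changed by -0.76 ± 0.15 (edgeR adjusted p = 0.00164). Cpe (chr8:64592558-64693040) had 3265, 3486 and 3179 against 1625, 1577 and 1691, a change of -1.02 ± 0.06 (edgeR adjusted p = 1.36e-08).

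Levels of other cell markers also differed between these groups, where 13.3% of all genes tested were lower and 12.6% higher. Of 5 epithelial markers, Epcam, Cdh1, Krt8, Krt18 and Cldn7, all were lower with a median log2 fold change of -0.56, and their sum ranged from 21050 to 23280 normalised reads in wt and from 14800 to 15560 in the libraries labelled S1pr2 null. Of 15 neural and neural crest markers tested out of 16 listed, 3 were lower and 4 higher, and their sum was 5935 to 6445 against 7230 to 7978. Of 4 erythroid markers 3 were higher, with a sum of 3832 to 6304 against 10180 to 14080. Of the 5 acinar and progenitor markers Cpa1, an acinar enzyme, changed by -1.32 ± 0.19 and Ptf1a, an acinar and progenitor factor, by -0.89 ± 0.20, and the other 3 were not called. The part of these differences in the falls of the granule genes was not tested.

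The comparison of JTE with control asks the same of the receptor's antagonist in culture. Here 8 of the 10 genes were lower, against 26.2% of all genes tested, 1 was higher, against 25.9%, and 1 was not called. The median log2 fold change was -0.72 against 0.00 over all genes. The libraries of the groups did not overlap for 9 of the 10, against 56.7% of all genes tested in either direction. Leaving out any of the 15 libraries in turn, JTE replicate 3 included, changed none of these 10 calls.

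The largest fall was that of Scg2, a granin precursor of the peptide secretoneurin, with 3619, 3732 and 3203 normalised reads in control and 994.5, 1170.1 and 1120.7 with JTE. This was a 3.21-fold lower level and a log2 fold change of -1.68 ± 0.10 (edgeR adjusted p = 1.22e-09). Chga had 2728, 2657 and 2770.1 against 1816, 1732 and 1383, a change of -0.73 ± 0.09, and Chgb 7092, 5303 and 5586 against 4138, 3876 and 3623, a change of -0.63 ± 0.09. Scg3 was the gene that was not called, with 1536, 1515 and 1327 normalised reads in control and 1374, 1474 and 1296 with JTE. The libraries overlapped, and the 95% interval of its log2 fold change ran from -0.257 to 0.0973 (edgeR adjusted p = 0.448). Vgf went the other way from the rest of the set. It had 38.2, 36.2 and 55.2 normalised reads in control and 86.8, 111.3 and 92.1 with JTE, a 2.24-fold rise and a log2 fold change of 1.16 ± 0.18 (edgeR adjusted p = 4.4e-05).

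The processing enzymes and their partners were all lower with JTE. Pcsk1 had 1177, 1071 and 1011 normalised reads in control and 583.0, 606.5 and 465.0 with JTE, a change of -0.98 ± 0.09 (edgeR adjusted p = 9.97e-08). Pcsk2 changed by -0.72 ± 0.08, Scg5 by -0.88 ± 0.08 and Pcsk1n by -0.997 ± 0.132 (edgeR adjusted p of 1.88e-06, 2.27e-07 and 8.19e-06). Cpe had the smallest of the called changes, -0.37 ± 0.06, with 6575, 6370 and 5813 normalised reads in control and 4718, 4947 and 4830 with JTE (edgeR adjusted p = 8.71e-05).

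The hormone genes had larger median changes than the granule genes in both comparisons. Of 8 islet hormone genes 8 were lower in the libraries labelled S1pr2 null, against 13.3% of all genes tested, with a median log2 fold change of -2.39. With JTE 7 were lower, against 26.2%, with a median of -0.93. Ins1 and Ins2, which encode insulin in beta cells, changed by -4.03 ± 0.32 and -4.65 ± 0.33 in the libraries labelled S1pr2 null. With JTE they changed by -4.64 ± 0.27 and -3.70 ± 0.27. Gcg, the glucagon gene of alpha cells, changed by -0.80 ± 0.18 and -1.01 ± 0.18. With JTE, Ppy changed by -1.88 ± 0.17, Pyy by -0.86 ± 0.10, Iapp by -0.76 ± 0.14 and Ghrl by -0.47 ± 0.15. Sst was not called with JTE, at -0.19 ± 0.12. Pyy and Iapp thus lay near the JTE median of the granule genes, -0.72, while Ghrl and Sst changed by less. Whether the difference in size between hormones and granule genes exceeds the spread was not tested.

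In JTE against control 26.2% of all genes tested were lower and 25.9% higher, and the marker counts stand beside these shares. With JTE, 5 of 5 macrophage markers were lower, with sums of 2949 to 3195 normalised reads in control and 967 to 1112 with JTE. So were 5 of 5 enteroendocrine markers tested, with sums of 373 to 416 against 134 to 146, and 4 of 4 endothelial markers. Of the epithelial markers 3 were lower, with sums of 29660 to 34330 in control and 20690 to 26040 with JTE, and the neural sums overlapped, at 4903 to 5649 and 4699 to 5975. The neural list held 2 genes that were lower, Th and Tubb3, and 2 that were higher, among them Prph. Dbh, which defines noradrenergic cells, did not pass the filter on low counts and had 3 or fewer reads in every library of the groups with JTE013. Of the acinar and progenitor markers Ptf1a was higher with JTE, by 0.83 ± 0.18. Pdx1 and Sox9 were lower, at -0.67 ± 0.08 and -0.70 ± 0.09, and Cpa1 and Nkx6-1 were not called. The part of these lists in the changes of the granule genes was not tested.

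**Figure D3:**
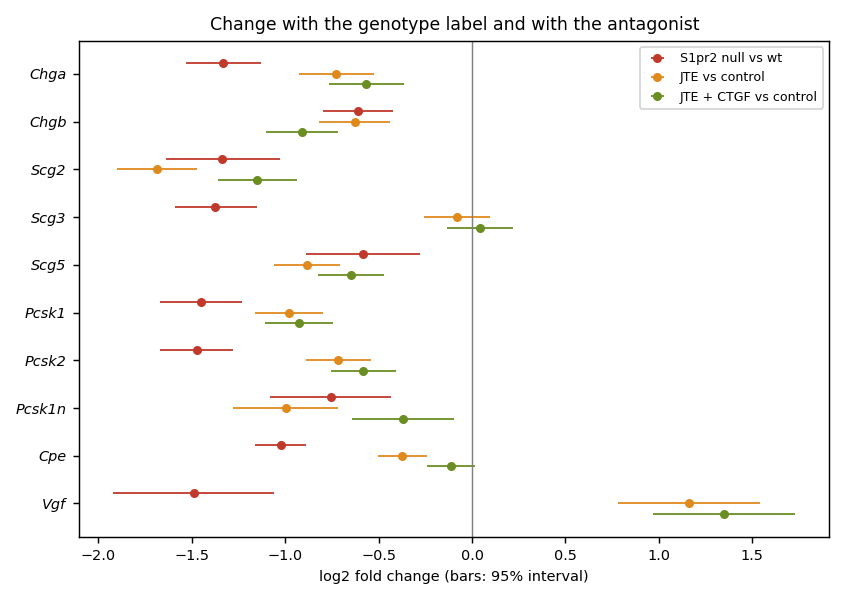
Fitted log2 fold change (x axis) of each of the 10 genes (y axis) in the libraries labelled S1pr2 null against wt, in JTE against control and in JTE+CTGF against control, with bars for the 95% interval. All 10 points of the first comparison lie below 0, Scg3 sits at 0 in both explant comparisons, which share their control libraries, and Vgf lies above 0 in both of them at 1.16 and 1.35.

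The responses to the genotype label and to the antagonist were compared directly by their interaction, which shares no library between its arms. For 6 of the 10 genes the JTE response lay above that of the libraries labelled S1pr2 null, against 21.5% of all genes tested, and for 0 it was lower. The difference was greatest for Vgf, at 2.65 ± 0.27 on the log2 scale (edgeR adjusted p = 1.25e-06), and for Scg3, at 1.29 ± 0.13 (edgeR adjusted p = 1.35e-06). Pcsk2, Cpe, Chga and Pcsk1 differed by 0.76 ± 0.12, 0.65 ± 0.09, 0.60 ± 0.13 and 0.47 ± 0.14. For Chgb the difference was -0.017 with a 95% interval of -0.283 to 0.249. Scg2, Scg5 and Pcsk1n differed by -0.35, -0.30 and -0.24, with intervals that included 0, and Scg2 was called without wt replicate 2 (-0.51, adjusted p = 0.019). The arms also differ in stage, culture and the part of the organ sampled, which cannot be told apart from the mode of blocking the receptor.

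CTGF was used by the study as a means to rescue cell survival apart from specification, and its addition to JTE013 is compared here with JTE013 alone. Against JTE alone, 4 of the 10 genes were higher with CTGF, against 13.6% of all genes tested, and 1 was lower, against 16.8%. The libraries did not overlap for 5 of the 10, against 40.2% of all genes tested in either direction. Scg2 had 994.5, 1170.1 and 1120.7 normalised reads with JTE and 1452, 1521 and 1790 with JTE+CTGF, a log2 fold change of 0.53 ± 0.10 (edgeR adjusted p = 0.000868). Pcsk1n had 1198, 1331 and 1052 against 1675, 1787 and 2075, a change of 0.63 ± 0.13 (edgeR adjusted p = 0.00179). Cpe had 4718, 4947 and 4830 against 5649, 5391 and 6306, a change of 0.26 ± 0.06 (edgeR adjusted p = 0.00444). For these 3 genes the groups did not overlap and no single library decided the call.

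The other calls of this comparison were close to the threshold. Scg5 had 786.1, 818.9 and 817.5 normalised reads with JTE and 830.1, 932.1 and 1089 with JTE+CTGF, a log2 fold change of 0.23 ± 0.09 (edgeR adjusted p = 0.0477). It was 0.13 without JTE+CTGF replicate 3 (adjusted p = 0.304), and was also not called without JTE+CTGF replicate 2, JTE replicate 1 or 2, S1pr2 null replicate 2, or any wt or control library (adjusted p from 0.0501 to 0.125). Chgb was lower, at -0.28 ± 0.09 (edgeR adjusted p = 0.0262), and was not called once JTE replicate 1 or 2 or JTE+CTGF replicate 1 or 2 was left out (adjusted p from 0.0523 to 0.102). Chga, Scg3, Pcsk1, Pcsk2 and Vgf were not called, with changes from 0.05 for Pcsk1 to 0.19 for Vgf.

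Against control, 7 of the 10 genes were lower with JTE+CTGF, against 33.0% of all genes tested, 1 was higher, against 28.1%, and 2 were not called. The libraries did not overlap for 7 of the 10, against 64.8% of all genes tested in either direction. Since this comparison uses the same control libraries as that of JTE alone, the values are given side by side. Scg2 changed by -1.68 with JTE and by -1.15 with JTE+CTGF, Pcsk1 by -0.98 and -0.93, Chgb by -0.63 and -0.91, and Vgf by 1.16 and 1.35. Cpe changed by -0.37 with JTE and by -0.11 ± 0.06 with JTE+CTGF (edgeR adjusted p = 0.123), and was called without control replicate 3 (adjusted p = 0.0401) or JTE+CTGF replicate 3 (adjusted p = 0.02). Pcsk1n changed by -0.997 and by -0.37 ± 0.13 (edgeR adjusted p = 0.021), and the latter was not called without control replicate 1 or 3 or JTE+CTGF replicate 1 or 2 (adjusted p from 0.0525 to 0.0939).

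The comparison of control explants with wt pancreas describes what 2 days of culture bring, although stage, culture and the use of the dorsal bud alone cannot be told apart in it. Of the 10 genes 7 were higher, against 28.5% of all genes tested, 1 was lower, against 29.3%, and 2 were not called. The median log2 fold change was 1.47 against -0.023 over all genes. The libraries did not overlap for 7 of the 10, against 63.8% of all genes tested in either direction.

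The rises were of very different size. Scg5 had 111.6, 102.5 and 106.0 normalised reads in wt and 1563, 1464 and 1434 in control, a 13.9-fold rise and a log2 fold change of 3.80 ± 0.10 (edgeR adjusted p = 2.57e-14). Scg2 had 254.8, 360.1 and 274.0 against 3619, 3732 and 3203, an 11.9-fold rise (edgeR adjusted p = 1.88e-13). Pcsk1n had 485.2, 690.6 and 458.9 against 2656, 2031 and 2457, a 4.37-fold rise. The convertases rose less than their partners, with 95% intervals that did not overlap, Pcsk2 by 3.31-fold from 1310, 1510 and 1347 to 4580, 4960 and 4231 and Pcsk1 by 2.70-fold from 431.2, 403.2 and 371.6 to 1177, 1071 and 1011. Scg3 rose 2.85-fold and Cpe 1.89-fold.

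The chromogranins stood apart from these genes. Chga had 2669, 3132 and 2699 normalised reads in wt and 2728, 2657 and 2770.1 in control, and the 95% interval of its log2 fold change was -0.256 to 0.137 (edgeR adjusted p = 0.604). Chgb had 6671, 6362 and 6378 against 7092, 5303 and 5586, with an interval of -0.298 to 0.0771 (edgeR adjusted p = 0.301), and was called lower, at -0.25, without control replicate 1 (adjusted p = 0.00879). Both groups overlapped for either gene. Vgf was lower in control, at -0.51 ± 0.19 (edgeR adjusted p = 0.0277), with overlapping libraries, and was not called without wt replicate 2 or 3 or control replicate 1 or 2 (adjusted p from 0.0581 to 0.121).

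**Figure D4:**
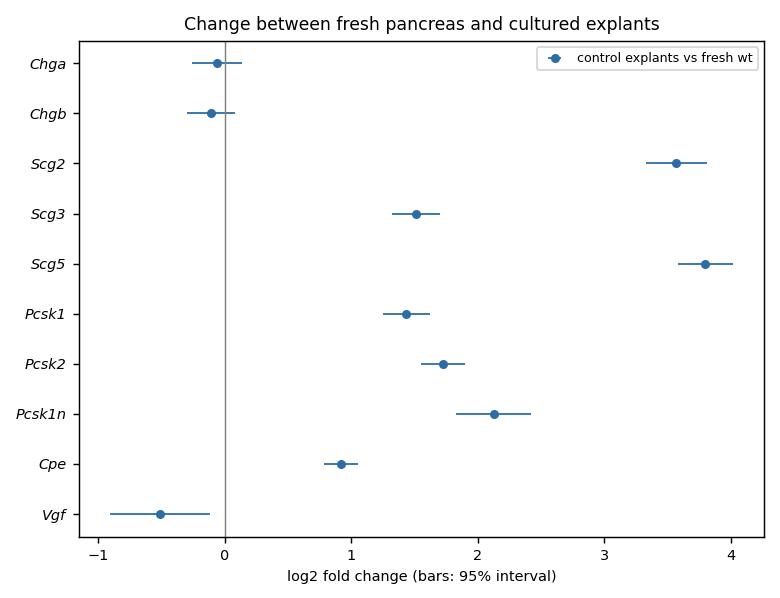
Fitted log2 fold change (x axis) of each of the 10 genes (y axis) in control explants against fresh wt pancreas, with bars for the 95% interval. Scg5 and Scg2 lie at 3.80 and 3.57, the bars of Chga and Chgb cross 0, and Vgf lies below 0 at -0.51.

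Over the same comparison, where 28.5% of all genes tested were higher and 29.3% lower, 4 of 5 macrophage markers were higher. Of the epithelial markers 3 of 5 were higher, with sums of 21050 to 23280 normalised reads in wt and 29660 to 34330 in control. The erythroid markers were lower for 4 of 4, with sums of 3832 to 6304 against 112 to 304. The neural sums were 5935 to 6445 and 4903 to 5649. Cpa1 was higher by 1.80 ± 0.19 and Ptf1a by 0.59 ± 0.18. Nkx6-1 was lower, at -0.29 ± 0.07, and Pdx1 and Sox9 were not called. The part of these markers in the changes of the granule genes was not tested.

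Ratios of RPKM within a library compare a convertase with its partner free of library size. Pcsk2 over Scg5 was 2.33, 2.92 and 2.52 in wt, 1.21, 1.4 and 1.61 in the libraries labelled S1pr2 null, and between 0.581 and 0.722 in all 9 explant libraries. The ratio was thus above 1 in all fresh libraries and below 1 in all explants on this scale, which rests on summed exon lengths of 7910.0 bases for Pcsk2 and 1569 for Scg5. In normalised reads Pcsk2 exceeded Scg5 in every group. Pcsk1 over Pcsk1n was 0.601, 0.395 and 0.548 in wt and 0.262, 0.343 and 0.329 in the libraries labelled S1pr2 null, was 0.279 to 0.357 in control and 0.299 to 0.329 with JTE, and was lowest with JTE+CTGF at 0.224, 0.209 and 0.197. Pcsk2 over Pcsk1 was 1.24 to 1.53 in wt and 1.31 to 1.57 in the libraries labelled S1pr2 null, so that the ranges overlapped, and was 1.59 to 1.90 in control against 1.95 to 2.31 with JTE, without overlap.

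Chgb over Chga was 1.72, 1.4 and 1.62 in wt and 2.57, 2.48 and 2.70 in the libraries labelled S1pr2 null. With JTE+CTGF it was 1.23, 1.27 and 1.10, lower than with JTE alone at 1.57, 1.54 and 1.80. Scg2 over Chga was 0.0712 to 0.0871 in all 6 fresh libraries and 0.415 to 1.06 in all explants. For every ratio and pair of groups without overlap the exact two-sided permutation p was 0.1, the smallest that 3 against 3 libraries allow, so none of the 25 ratio comparisons could reach 0.05.

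**Figure D5:**
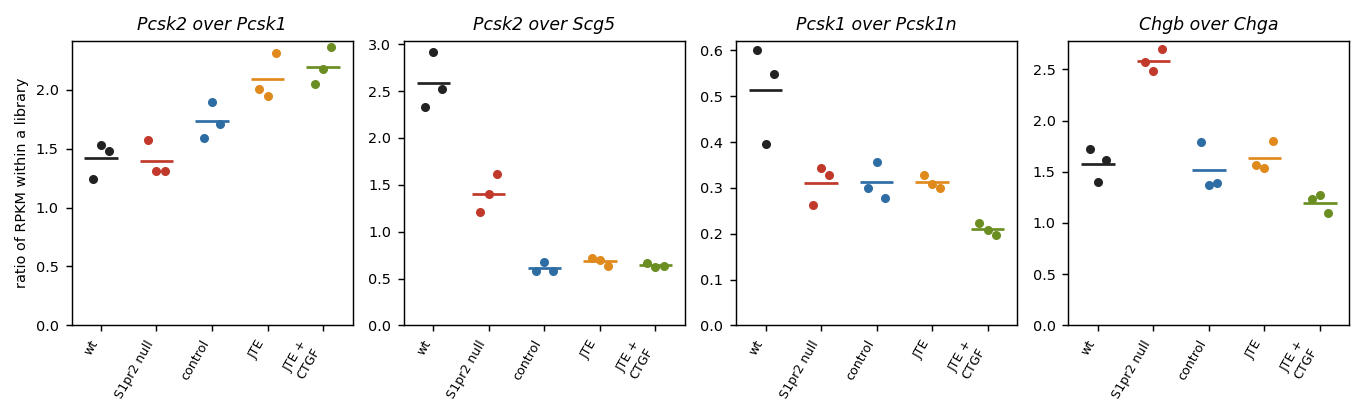
Ratio of RPKM (y axis, from 0) of the named gene pairs within each library, with points for libraries, short lines for group means and the 5 groups along the x axis. Pcsk2 over Scg5 is below 1 in all explants and above 1 in all fresh pancreata, and Chgb over Chga is highest in the libraries labelled S1pr2 null.

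The rest of the granule machinery was read from a list of 30 genes for cargo, docking and release, all of which were tested. The cell types in which these genes changed, endocrine or other, were not measured in the pooled tissue. In the libraries labelled S1pr2 null 18 were lower and 0 higher, against 13.3% and 12.6% of all genes tested, with a median log2 fold change of -0.57. Slc30a8, the zinc transporter of insulin granules, changed by -2.54 ± 0.26, Scgn, a calcium-binding protein of islet cells, by -1.72 ± 0.14, Rab3d, a small GTPase of secretory granules, by -1.24 ± 0.16, and Ptprn2, a granule membrane protein, by -1.17 ± 0.09. With JTE 14 were lower and 4 higher, against 26.2% and 25.9%, with a median of -0.21. Slc30a8 led here too, at -1.65 ± 0.14, followed by Sytl4, a Rab27 effector at granules, at -1.39 ± 0.08. With CTGF added to JTE 5 were lower and 1 higher, and the count of lower genes is near the 16.8% of all genes tested and that of higher genes under the 13.6%. Among them the active-zone scaffolds Pclo and Rims2 changed by -1.42 ± 0.13 and -0.97 ± 0.19, and Scgn by 0.53 ± 0.11. In control explants against wt 25 were higher and 1 lower, against 28.5% and 29.3% of all genes tested, with a median of 0.73 and with Slc30a8 at 2.96 ± 0.16 and Sytl4 at 2.45 ± 0.09.

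Among 12 other convertases and peptidases, which act outside the regulated granule or in many cell types, 3 were lower and 0 higher in the libraries labelled S1pr2 null, against 13.3% and 12.6% of all genes tested, with a median log2 fold change of -0.017. With JTE 3 were lower and 4 higher, near the 26.2% and 25.9% of all genes tested, with a median of 0.011. Pcsk6, a convertase of the constitutive pathway, rose by 1.74 ± 0.07 with JTE (edgeR adjusted p = 1.02e-11), while the lysosomal protease Ctsh fell by 0.82 ± 0.09. In control against wt 4 were lower and 5 higher, not far from the 29.3% and 28.5% of all genes tested. Of the 12 endocrine transcription factors listed, 9 were lower and 0 higher in the libraries labelled S1pr2 null and 7 lower and 0 higher with JTE, against the same shares of all genes. In control explants 5 of these factors were lower and 3 higher, again not far from the shares of all genes tested, with Neurog3, the factor that starts endocrine differentiation, at -2.44 ± 0.19.

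Of 4 regulators of granin genes, 2 were higher and 0 lower in the libraries labelled S1pr2 null, against 12.6% and 13.3% of all genes tested. Rest rose there by 0.51 ± 0.06 and Creb1 by 0.22 ± 0.06. With JTE Rest was not called, at 0.14 ± 0.06 (edgeR adjusted p = 0.0545), and only the cAMP-responsive factor Crem was, at -0.34 ± 0.10. With CTGF added to JTE, Rest and Creb1 were lower, at -0.34 ± 0.06 and -0.19 ± 0.06. In JTE+CTGF against control Rest, Creb1 and Crem were lower, at -0.20, -0.23 and -0.31, where 33.0% of all genes tested were lower. In control against wt Crem rose by 1.15 ± 0.10. The part of these regulators in the changes of the granule genes was not tested.

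The genes whose pattern over the 5 group means was most like the median of the 10, by the root mean square difference of centred log2 levels among 11376 genes, included Sez6l2 at 0.104, Ghrl at 0.172, Resp18 at 0.181, Perp at 0.181, Ggh at 0.194, Isg20 at 0.195 and Cbs at 0.201. Ghrl encodes ghrelin, a hormone of fetal islets. Within the set, Pcsk2 was nearest to the median pattern at 0.192 and Chgb farthest at 1.06, followed by Scg5 at 0.925 and Scg2 at 0.836.

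Overlap with other genes was small. Pcsk2 overlaps the opposite-strand genes Pcsk2os1, with 5 to 38 reads per library, and Pcsk2os2, with 0 to 6, and Pcsk1n overlaps Eras, with 0 to 4. Of the 50-base words of Pcsk2 and Pcsk1n 3.69% and 4.01% occur in another gene, against at most 0.07% for the other members.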

How the data were processed

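Per the study's methods, single-end reads were aligned by the authors to mm10 with GSNAP and Ensembl splice sites, and the deposited counts are uniquely aligned reads per Ensembl gene from featureCounts 1.4.6, not normalised. Use of strand in counting is not given in the sources used here. The deposited table also holds each gene's summed exon length, which was used for RPKM. Groups and replicate numbers came from the sample titles. Symbols came from GENCODE M21 (97.9% of 25292 IDs).

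The test was the edgeR 4.0.16 quasi-likelihood F test under R 4.3.3 (TMM, filterByExpr, all 15 libraries together, 1 coefficient per group, no covariate), with Benjamini-Hochberg adjustment over 16245 genes. The biological coefficient of variation was 7.3%. Ratios were compared by exact permutation of libraries. DESeq2 1.42.0, RLE factors, no filter, a replicate block, the compared libraries alone and each library left out were tried, and the test was tried on simulated data. The limits of the study's own criterion (adjusted p at most 0.1, mean normalised count above 100, fold below 0.6 or above 1.6) were also tried, on the edgeR results. Replicates differed by more than sampling noise (chi-square per gene at least 2.34). No label gives a batch or date, and p-values measure the spread between pooled samples.

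The members and the gene lists were chosen with earlier results of these data known. The text names all members, up to 4 called genes of largest change per list and comparison, and the 8 islet hormone genes. It also names Rest with JTE, the 8 genes of nearest pattern (mean normalised count above 100) and S1pr2. Some genes that this rule selects are not reported here. A count of 3 reads was the floor.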

Additional observations from a re-analysis of the deposited data

Results flagged for a closer look

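For 6 genes the response to JTE013 in explants differed from the difference between the libraries labelled S1pr2 null and wt, by the interaction test of edgeR with adjustment over all genes. The JTE response lay above the null-label difference by 2.65 ± 0.27 for Vgf (log2, SE, adjusted p = 1.25e-06), 1.29 ± 0.13 for Scg3 (1.35e-06), 0.76 ± 0.12 for Pcsk2 (0.000107), 0.65 ± 0.09 for Cpe (2.15e-05), 0.60 ± 0.13 for Chga (0.00168) and 0.47 ± 0.14 for Pcsk1 (0.0108). Vgf was lower in 3 of 3 libraries labelled S1pr2 null and higher in 3 of 3 JTE libraries. The other 5 were lower in the libraries labelled S1pr2 null and, apart from Scg3, also lower with JTE. All 6 kept their call without any one of the 15 libraries. What part stage, culture and the dorsal bud have in these differences was not tested.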

How the results depend on the processing

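RLE factors and no low count filter changed the call of no member. The limits of the study's own criterion were applied here to the edgeR results over all genes tested. The study applied them to DESeq2 results and kept only known mRNAs, so the counts below are not its counts. Under these limits the members lower were 7 in the libraries labelled S1pr2 null against wt. Of all 16245 genes tested 274 were lower there. In JTE against control 4 members were lower and 0 higher, against 864 and 525 of all genes. In JTE+CTGF against JTE they were 0 and 0, against 230 and 92. The members lower were 3 in JTE+CTGF against control and 0 in control against wt, against 1254 and 711 of all genes. Members higher in those comparisons are not given here. The fold and count limits of this criterion make it stricter. By the count limit Vgf could not be called in the libraries labelled S1pr2 null against wt, with means of 21.8 and 61.6. The same held in JTE against control, with 96.7 and 43.2. The members lower in control against wt were 0 with DESeq2 and with the compared libraries alone, where Vgf was not called (adjusted p = 0.0697 and 0.0541). With the compared libraries alone Scg5 in JTE+CTGF against JTE was not called either (adjusted p = 0.0798). With a library left out, the members lower ranged from 0 to 1 in JTE+CTGF against JTE, in control against wt and in the interaction, where Scg2 was called without wt replicate 2 (-0.51, adjusted p = 0.019). With DESeq2 Pcsk1n in JTE+CTGF against control was not called (adjusted p = 0.0624).

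Changes that were not called turned sign when single libraries were left out, over a range of -0.023 to 0.126 for Pcsk1 in JTE+CTGF against JTE (JTE replicate 3), -0.0364 to 0.0964 for Scg3 in JTE+CTGF against control (control or JTE+CTGF replicate 3), -0.102 to 0.0172 for Chga in control against wt (wt replicate 2) and -0.0978 to 0.122 for Chgb in the interaction (S1pr2 null replicate 3, control replicate 1 or JTE replicate 3).

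Replicate numbers showed no general pairing of the libraries, since 4 of 30 same-number pairs had a correlation of deviations over 0.1. These correlations ran from -0.2904 to 0.4454. Between control and JTE they were -0.0406, 0.2807 and 0.4454, against -0.4191 to 0.3263 for pairs of unlike number. With so few pairs, pairing within that comparison cannot be decided. With the replicate number as a block, Scg5 in JTE+CTGF against JTE was not called (0.23, adjusted p = 0.0627), and no other call of a member changed. Vgf, with few reads, had the widest intervals.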
